A study of Mus musculus with 9 samples.

Results

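The plasminogen activators Plat and Plau, the receptor Plaur and the serpins Serpine2, Serpine3 and Serpinf1 were followed in mouse retina after laser-induced retinal vein occlusion (RVO). These 6 genes were chosen by their symbols out of 48679 names in the count table, by a rule that used no values though earlier results of these data were known, and all 6 were found and passed the filter for low counts in every comparison. Retinal RNA of C57BL/6J mice aged 12 weeks was sequenced in 9 samples, and each sample pooled 6 retinas. In 3 RVO pools, every vein of the eye had been laser-treated after injection of the photosensitizer eosin Y. In 3 control pools, the fellow eyes of mice with RVO had received an equivalent number of laser sites between the large vessels, so that RVO and control eyes shared the dye and the laser damage. Laser-treated retinas were taken at d2, and 3 pools of untreated eyes gave the baseline. Each value is thus a mean over several retinas, in which reopened and closed veins may be mixed, and p-values measure the spread between pools.

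Plasmin, the protease that dissolves fibrin and cleaves matrix proteins, is released from plasminogen by the tissue-type activator (Plat) or the urokinase-type activator (Plau). The urokinase receptor (Plaur) holds Plau at the surface of leukocytes, endothelium and other cells, where plasmin is formed close to the membrane. Serpins are suicide inhibitors that trap such proteases, although some members of the family, Serpinf1 (pigment epithelium-derived factor, PEDF) among them, do not inhibit any protease. In the retina, Plat is known from neurons and vessels, and PEDF from the pigment epithelium and Mueller glia as a neurotrophic and anti-angiogenic factor.

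The activator genes lie on separate chromosomes of the mouse (build GRCm38, annotation GENCODE vM21). Plat was annotated at chr8:22757727-22782844 on the plus strand with 6241 exonic bases, Plau at chr14:20836660-20843385 on the plus strand with 2367, and Plaur at chr7:24462484-24475968 on the plus strand with 2617. The serpin genes were Serpine2 at chr1:79794197-79861180 on the minus strand with 8287 exonic bases, Serpine3 at chr14:62663667-62692243 on the plus strand with 1402, and Serpinf1 at chr11:75409769-75422701 on the minus strand with 2359. Of the exonic bases of Serpine3, 348 (24.8%) were also exonic in Ints6, an Integrator subunit gene on the opposite strand.

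RefSeq promoter sequences (build GRCm38.p6) were at hand for 4 members, Plaur, Serpine2, Serpine3 and Serpinf1. The 250 bases before the start are shown for Plaur and Serpine3, the members with the largest rise and the largest fall between RVO and control eyes. Both are on the plus strand and written 5′ to 3′, and capitals mark a match to the AP-1 motif TGANTCA.
Plaur, chr7:24462233-24462482: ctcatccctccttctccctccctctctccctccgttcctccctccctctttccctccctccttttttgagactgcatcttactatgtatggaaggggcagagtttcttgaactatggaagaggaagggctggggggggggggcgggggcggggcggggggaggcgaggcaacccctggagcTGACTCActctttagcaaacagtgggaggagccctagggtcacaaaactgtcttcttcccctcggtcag
Serpine3, chr14:62663417-62663666: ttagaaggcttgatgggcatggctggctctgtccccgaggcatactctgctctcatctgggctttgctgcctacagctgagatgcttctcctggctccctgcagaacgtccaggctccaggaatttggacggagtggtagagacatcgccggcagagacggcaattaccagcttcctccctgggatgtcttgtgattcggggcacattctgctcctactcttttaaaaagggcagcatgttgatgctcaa
The windows searched held 250 bases before and 50 after the start, on both strands. The AP-1 match of Plaur lay at positions -69 to -63, and 7.81% of 32851 promoters held such a match. The core of the hypoxia response element (ACGTG or GCGTG, found in 43.8% of promoters) was present in 1 copy in Serpinf1, at -93 to -89, and not in Plaur, Serpine2 or Serpine3. The STAT motif TTCNNNGAA (8.30% of promoters) was found in none of these 4 windows. Such matches describe letters only, and binding was not measured.

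Total counts were 12377572 to 15245869 in untreated, 18897218 to 23419497 in control and 21022997 to 28993921 in RVO pools. Levels are given as CPM, the counts of a gene per 1000000 counts after TMM scaling of the libraries. Rod markers summed to 83309–85127 CPM in untreated pools, 53523–65260 in control pools and 43331–47428 in RVO pools, so that each pool held abundant retinal RNA. RVO replicate 2 stood apart from the other RVO pools, with lens markers at 3091 CPM against 115 and 254, neutrophil markers at 32.8 CPM against 76.5 and 81.7, and endothelial markers at 254 CPM against 139 and 185. Pigment epithelium markers summed to 736 CPM there, against 394 and 590 in the other RVO pools, 487–562 in control and 547–604 in untreated pools. Lens markers were also uneven among control pools, at 1736 CPM in replicate 1 against 207 and 125, and lay between 1.79 and 16.0 CPM in untreated pools. Results that rest on RVO replicate 2 are therefore given with and without it. In bulk retina, a change in the number of cells of a type and a change in RNA per cell cannot be told apart.

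**Figure D1:**
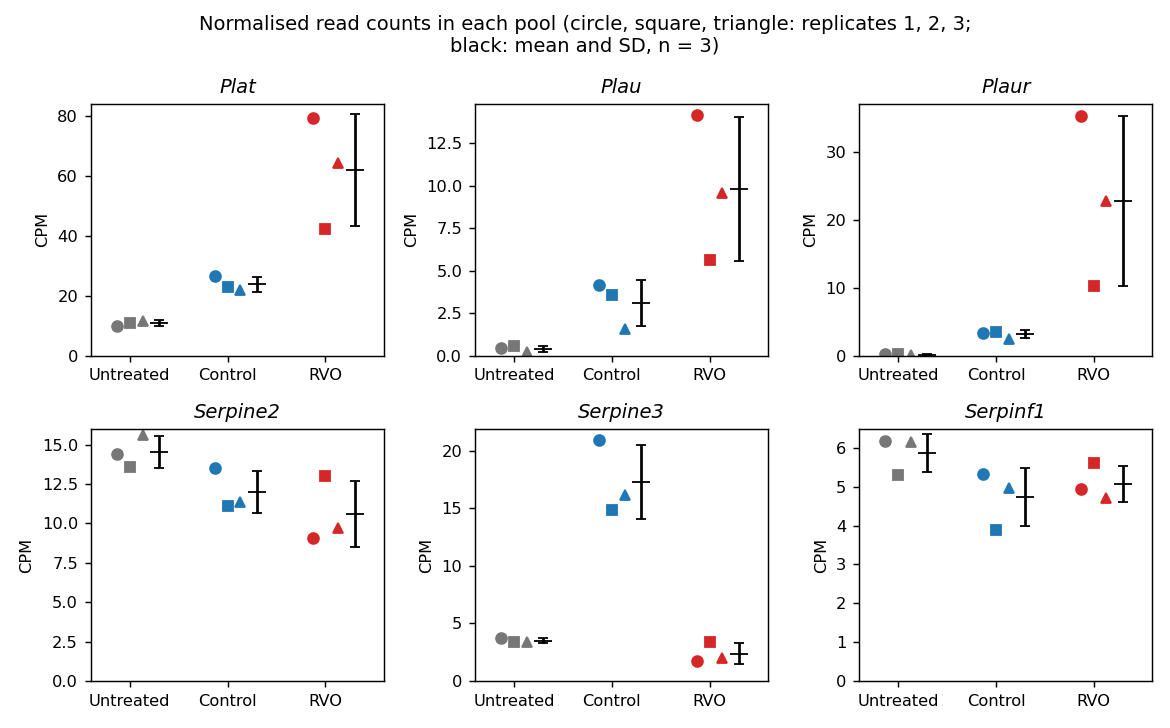
Level of each of the 6 genes in each pool, in CPM on a linear axis that starts at 0, with replicates 1, 2 and 3 as circle, square and triangle and the mean ± SD (n = 3) in black. Plat, Plau and Plaur stepped up from untreated over control to RVO pools, whereas Serpine3 was high in the 3 control pools only (14.9 to 20.9 CPM).

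Laser treatment was first compared with no treatment. Both activators and the receptor were up-regulated in RVO and in control eyes, with folds that ranged from 2.23 for Plat in control eyes to a count ratio of 182 for Plaur in RVO eyes. Serpine3 was up-regulated in control eyes, while its level in RVO eyes was close to that in untreated eyes. Serpine2 and Serpinf1 did not pass the test in either comparison. By edgeR's quasi-likelihood test, with a Benjamini-Hochberg adjusted p under 0.01 as the threshold, 3 of 6 members rose and 0 fell in RVO eyes, against 52.1% of 16380 genes tested that differed from untreated eyes (27.4% higher, 24.6% lower), or 4492 genes higher and 4037 lower. In control eyes 4 of 6 members rose and 0 fell, against 52.4% of 16066 genes tested (27.2% higher, 25.2% lower), or 4371 higher and 4045 lower. When only library size was scaled, these counts became 5967 and 2741 for RVO and 5902 and 2484 for control eyes, while the same 3 and 4 members rose. At an unadjusted p under 0.05, 1 member, Serpine2, was lower in each of these comparisons, and DESeq2 also called 0 lower. Such a p was reached in either direction by 11499 of 16380 genes for RVO and 10864 of 16066 for control eyes. The groups did not overlap for 4 of 6 members in RVO against untreated eyes, where this held for 73.4% of genes tested, and for 5 of 6 in control against untreated eyes, where it held for 70.0%. The comparisons share the untreated pools. Plau and Plaur, with at most 7 and 2 counts per untreated pool, passed the filter only through the laser-treated pools, so that their direction against untreated eyes was set by the filter and adds nothing to these counts.

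Plat, the tissue-type activator, was measured at 9.72, 11.0 and 11.6 CPM in untreated pools, 26.5, 23.0 and 21.8 CPM in control pools and 79.3, 42.3 and 64.3 CPM in RVO pools. The 3 groups did not overlap, and every RVO pool was above every control pool. Plat rose 2.23-fold in control eyes (log2 fold change 1.16, SE 0.11, edgeR adjusted p = 1.51e-06) and 5.88-fold in RVO eyes (2.56, SE 0.23, adjusted p = 5.03e-05).

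Plau, the urokinase-type activator that binds Plaur, was low in untreated retina, with counts of 5, 7 and 3, or 0.454, 0.547 and 0.214 CPM. It reached 4.16, 3.54 and 1.55 CPM in control pools and 14.1, 5.65 and 9.59 CPM in RVO pools. Groups were again separate, though control replicate 3 lay well below the other control pools. The rise was 7.67-fold in control eyes (log2 fold change 2.94, SE 0.47, edgeR adjusted p = 0.00013) and 24.9-fold in RVO eyes (4.64, SE 0.48, adjusted p = 0.000104). As Plau passed the filter only through the laser-treated pools, its direction was set beforehand, and these values describe the size only. The counts of Plau amounted to 1.85% to 4.96% of those of Plat in untreated pools, 7.10% to 15.7% in control pools and 13.3% to 17.8% in RVO pools. The ratio of Plau to Plat was higher in each laser-treated pool than in each untreated pool, with a 3.42-fold difference for control and a 4.36-fold difference for RVO eyes (exact permutation test, two-sided, p = 0.1 for both, the smallest that 3 against 3 pools allow). These differences rest on the 5, 7 and 3 counts of Plau in untreated pools and on a gene kept through the laser-treated pools, so they are descriptive. Between RVO and control eyes the ratios overlapped (p = 0.7, exact permutation test).

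Plaur, the urokinase receptor, was almost undetected in untreated retina, with counts of 2, 2 and 1. Counts were 75, 70 and 60 in control pools and 1112, 241 and 518 in RVO pools, or 2.51 to 3.54 CPM and 10.2 to 35.4 CPM. No group overlapped another. Relative to the depth of the pools, the count ratio to untreated was 23.6 in control eyes (95% exact counting interval 9.93 to 73.3) and 182 in RVO eyes (77.9 to 562). These intervals cover counting error only, while the edgeR test across pools gave adjusted p = 8.86e-07 for control and 7.3e-05 for RVO eyes. By fitted fold change, Plaur held rank 49 from the top of 16380 genes in RVO and rank 67 of 16066 in control eyes, both against untreated. As Plaur passed the filter only through the laser-treated pools, its direction was set beforehand, and these p-values and ranks are descriptive.

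Serpine3, a serpin of the same subfamily as the classical activator inhibitors whose target proteases are little characterised, had counts of 41, 43 and 47 in untreated pools, 462, 294 and 385 in control pools and 53, 80 and 45 in RVO pools. In CPM, untreated pools were at 3.36 to 3.72, control pools at 14.9 to 20.9 and RVO pools at 1.69, 3.40 and 1.98. Control pools stood clear of both other groups, whereas RVO replicate 2 lay within the range of the untreated pools. The log2 fold change to untreated was 2.33 in control eyes (SE 0.16, edgeR adjusted p = 1.74e-07), and -0.54 in RVO eyes (SE 0.28, adjusted p = 0.124; 95% interval -1.19 to 0.11). Without RVO replicate 2, the latter was -0.88 (adjusted p = 0.00258), so that Serpine3 then passed the test as lower in RVO eyes.

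Serpine2 (protease nexin 1), an inhibitor of thrombin, urokinase, tissue-type activator and plasmin, was measured at 14.4, 13.6 and 15.6 CPM in untreated, 13.5, 11.1 and 11.3 CPM in control and 9.08, 13.0 and 9.72 CPM in RVO pools. Untreated pools were the highest, by a small margin, and control and RVO pools overlapped. The log2 fold change to untreated was -0.26 in control eyes (SE 0.11, edgeR adjusted p = 0.0490) and -0.43 in RVO eyes (SE 0.16, adjusted p = 0.0399), neither under the threshold of 0.01. Without RVO replicate 2 the RVO value was -0.59 (adjusted p = 0.000991).

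Serpinf1 (PEDF) was measured at 6.18, 5.31 and 6.14 CPM in untreated, 5.34, 3.89 and 4.98 CPM in control and 4.94, 5.61 and 4.70 CPM in RVO pools. All groups overlapped. The 95% intervals of the log2 fold change were -0.63 to 0.05 for control and -0.54 to 0.19 for RVO against untreated eyes (edgeR adjusted p = 0.126 and 0.345), so that changes within these bounds were not excluded with 3 pools per group.

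**Figure D2:**
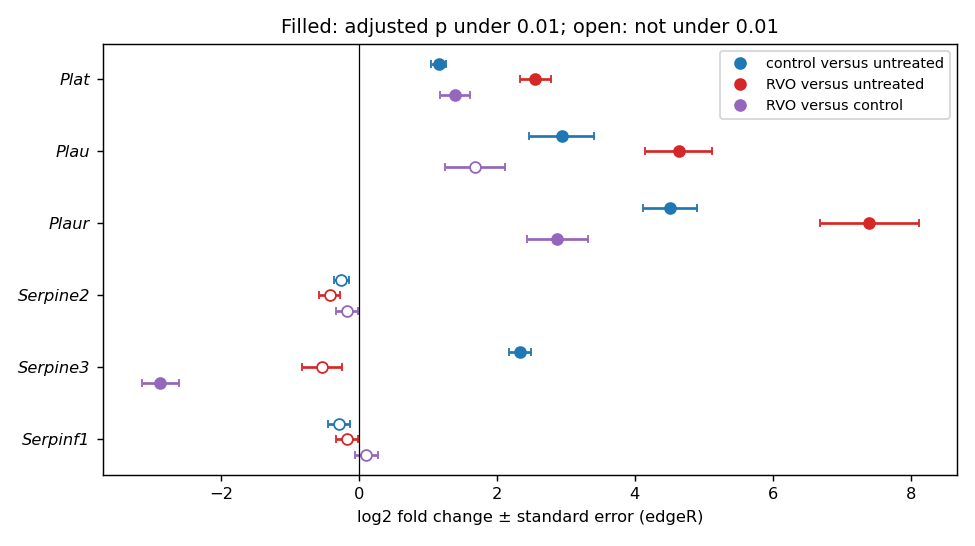
Log2 fold change ± standard error of each gene in the 3 comparisons (edgeR, 3 pools per group), with filled points where the adjusted p was under 0.01 and open points elsewhere. Plat, Plau and Plaur lay to the right of 0 in each comparison, and Serpine3 lay at 2.33 for control versus untreated and at -2.88 for RVO versus control. Against untreated pools, the direction of Plau and Plaur was set by the filter for low counts.

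The comparison of RVO with control eyes, which had both received laser treatment, addressed the effect of vein occlusion beyond laser damage. Plat and Plaur were higher and Serpine3 was lower in RVO eyes, so that 3 of 6 members passed the test, against 3.34% of 16874 genes tested (2.70% higher, 0.634% lower; edgeR, adjusted p under 0.01). Plau had a 3.21-fold higher level without passing it. RVO and control pools did not overlap for 4 of 6 members, Plat, Plau, Plaur and Serpine3, nor for 52.5% of all genes tested.

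The difference of RVO from control eyes was 2.62-fold for Plat (log2 fold change 1.39, SE 0.22, edgeR adjusted p = 0.00989). Plaur was higher by 2.87 on the log2 scale (SE 0.44, adjusted p = 0.00977), rank 10 from the top of 16874 genes. The value of Plau was 1.68 (SE 0.43, 95% interval 0.68 to 2.69, adjusted p = 0.0236). In RVO eyes all 3 genes were highest in replicate 1 and lowest in replicate 2, and the spread was wide, with 62.0 ± 18.6 CPM for Plat, 9.79 ± 4.25 CPM for Plau and 22.8 ± 12.6 CPM for Plaur (mean ± SD, n = 3).

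Serpine3 was 7.39-fold lower in RVO eyes (log2 fold change -2.88, SE 0.27, edgeR adjusted p = 0.00564), and only 2 of the 16874 genes tested had a lower value. Counts of Serpine3 were 1.34 to 1.55 times those of Serpine2 in control pools, but 0.215 to 0.258 times in untreated and 0.186 to 0.261 times in RVO pools. The ratio was thus 6.67-fold lower in RVO than in control eyes and separated these pools without overlap (exact permutation test, two-sided, p = 0.1, the smallest possible). For Serpine2 and Serpinf1 the log2 fold changes were -0.18 (95% interval -0.56 to 0.20, edgeR adjusted p = 0.422) and 0.10 (-0.29 to 0.49, adjusted p = 0.662).

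These calls lay near the threshold and depended on the scaling and on single pools. With DESeq2's size factors in place of TMM, the edgeR adjusted p was 0.0106 for Plat and 0.0104 for Plaur, which ended both calls, and 0.00593 for Serpine3. Without any 1 of the 6 pools, the log2 fold change stayed between 1.15 and 1.58 for Plat, 2.38 and 3.21 for Plaur, and -3.26 and -2.69 for Serpine3. The adjusted p, however, reached 0.0567 for Plat and Plaur and 0.0389 for Serpine3. Without RVO replicate 1 or 3 or without control replicate 1, 2 or 3, 0 members passed the test, although 4 members then had an unadjusted p under 0.05. In these fits only 0 to 29 of 17149 to 17270 genes tested passed, so that the loss of calls was not particular to the members. An unadjusted p under 0.05 was reached there by 6100 to 6916 genes. Without RVO replicate 2, 4 members passed it: Plat (edgeR adjusted p = 7.75e-06), Plaur (6.14e-06), Serpine3 (4.57e-06) and Plau (0.000854). In that fit 6257 of 17199 genes tested passed it, against 563 of 16874 with all pools, so that the gain was not particular to the members.

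**Figure D3:**
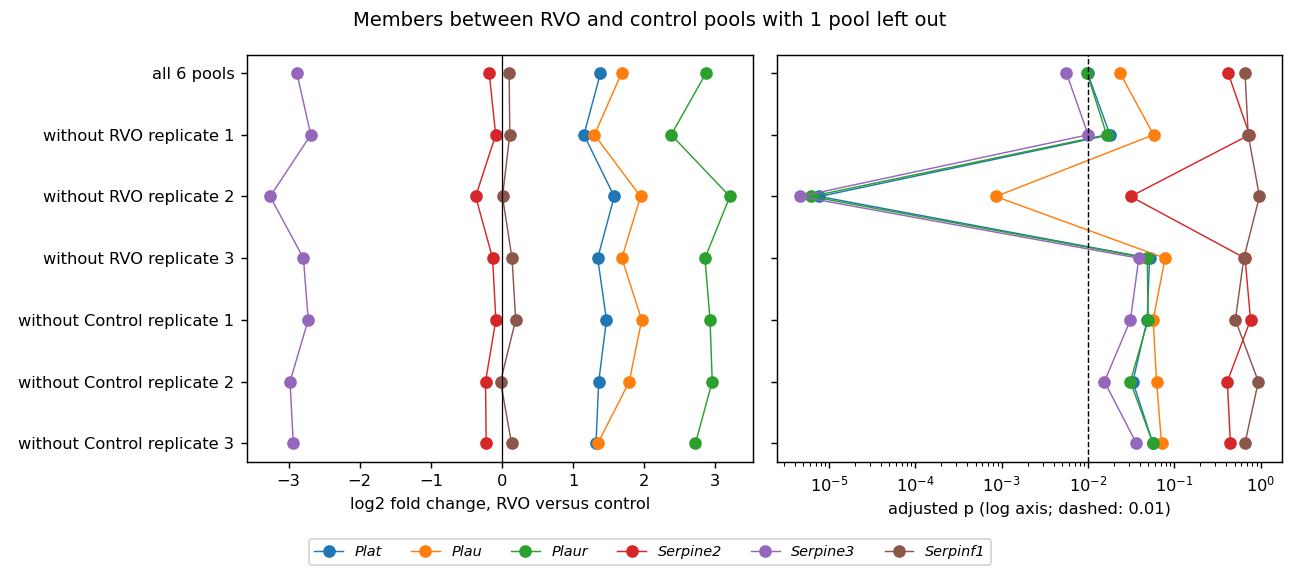
Log2 fold change (left) and adjusted p on a log axis (right, dashed line at 0.01) of the 6 genes between RVO and control eyes, with all 6 pools and with each pool left out in turn (edgeR). Directions of Plat, Plau, Plaur and Serpine3 held in every setting shown. Adjusted p was lowest for these genes without RVO replicate 2, where 6257 of 17199 genes tested were under 0.01.

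Marker sums of several cell types also differed between the groups, in both directions. Monocyte and macrophage markers summed to 10.2–13.1 CPM in untreated, 41.4–56.2 in control and 97.0–110 in RVO pools, with 4 of 6 higher than in untreated eyes in both laser groups (all genes tested, 27.4% higher in RVO and 27.2% in control eyes). Neutrophil markers summed to 0.0781–0.214, 4.85–17.0 and 32.8–81.7 CPM, where S100a8, S100a9 and Cxcr2 were higher in both laser groups and the defining markers Ly6g, Mpo and Ngp had 0 to 5 counts in each pool. S100a8, S100a9, Cxcr2 and the monocyte marker Ccr2 had at most 0.214 CPM in any untreated pool. They passed the filter against untreated eyes only through the laser-treated pools, which set their direction. Like Plat, Plau and Plaur, the neutrophil sum was lowest in replicate 2 among the RVO pools. Endothelial markers summed to 157–161 CPM in untreated, 304–339 in control and 139–254 in RVO pools, and most of this sum was Kdr (means 128, 254 and 148 CPM). Kdr, Tie1, Cldn5 and Esam had their highest means in control pools, as Serpine3 had. This was not particular to endothelium, as some markers of pericytes and Mueller glia, given below, had it too. Pecam1 (15.5 and 16.3 CPM) and Cdh5 (9.70 and 10.2 CPM) were about as high in RVO as in control pools. Against untreated eyes, 6 of 6 endothelial markers were higher in control and 3 of 6 in RVO eyes, to be read against the same shares of all genes. Lower endothelial markers in RVO than in control eyes numbered 0 of 6 by edgeR and 4 of 6 at an unadjusted p under 0.05. Of all genes tested, 0.634% were lower by edgeR, and 7940 of 16874 had an unadjusted p under 0.05 in either direction. Reactive glia markers summed to 169–180 CPM in untreated, 732–1017 in control and 1178–1338 in RVO pools (2 of 4 higher in both laser groups). The step from control to RVO pools was that of Vim, with means of 555 and 1036 CPM. Gfap (294 and 213 CPM) and S100b (8.42 and 4.85 CPM) went the other way, and Pax2 was low in both (1.03 and 1.18 CPM). Fibroblast markers summed to 23.6–29.4, 26.6–33.3 and 45.1–55.3 CPM. Markers of pericytes and smooth muscle summed to 87.6–101, 96.8–114 and 64.1–133 CPM. Among them, Pdgfrb (means 13.8, 21.0 and 12.4 CPM) and Kcnj8 (3.04, 4.03 and 1.43 CPM) were highest in control pools, whereas Rgs5, Acta2 and Myh11 were not. Mueller glia markers summed to 4331–4580, 2676–3299 and 1524–2288 CPM and microglia markers to 93.8–145, 47.9–55.5 and 29.9–49.4 CPM, with 3 of 6 and 4 of 5 lower than in untreated eyes in both laser groups (all genes tested, 24.6% lower in RVO and 25.2% in control eyes). The largest part of the Mueller glia sum was Glul (means 2599, 1254 and 652 CPM). Kcnj10 (114, 158 and 87.5 CPM) was higher in control than in untreated eyes (log2 fold change 0.49, edgeR adjusted p = 0.00109). Slc1a3 (265, 295 and 183 CPM) also had its highest mean in control pools, and Dkk3 was at 808 CPM in both untreated and control pools. The part of these cells in the levels of the 6 genes was not tested.

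Reads from the exonic bases that Serpine3 shares with Ints6 can be assigned only if counting used the strand, which is not given in the sources used here. Ints6 was measured at 36.3, 31.6 and 33.9 CPM in untreated, 26.2, 25.1 and 23.5 CPM in control and 33.8, 29.2 and 32.0 CPM in RVO pools. It was thus lowest in the group where Serpine3 was highest, with a log2 fold change of -0.43 in control against untreated eyes (edgeR adjusted p = 0.000551) and 0.35 in RVO against control eyes (adjusted p = 0.0223).

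Levels of different genes were compared per kb of exons, as CPM per kb (mean ± SD, n = 3). In untreated retina the order was Serpinf1 (2.49 ± 0.207), Serpine3 (2.48 ± 0.150), Serpine2 (1.76 ± 0.124), Plat (1.73 ± 0.153), Plau (0.171 ± 0.0725) and Plaur (0.0521 ± 0.0221). Serpinf1 and Serpine3 overlapped, as did Serpine2 and Plat. All serpins were thus expressed well above the urokinase activator and its receptor at baseline.

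In control eyes Serpine3 led with 12.3 ± 2.27 CPM per kb, clear of Plat at 3.81 ± 0.396 and of Serpinf1 at 2.01 ± 0.319. Serpine2, Plau and Plaur followed between 1.45 and 1.20, and did not differ beyond their spread. In RVO eyes the order was turned, with Plat at 9.93 ± 2.98, Plaur at 8.72 ± 4.81 and Plau at 4.14 ± 1.80 CPM per kb above Serpinf1 (2.15 ± 0.198), Serpine3 (1.68 ± 0.652) and Serpine2 (1.28 ± 0.253). Plat and Plaur overlapped, Plaur and Plau overlapped, and the lowest pool of Plau (2.39) was just above the highest pool of Serpinf1 (2.38) but below that of Serpine3 (2.42). Without division by length, the mean of Plat was above that of Serpine3 in control pools (23.8 and 17.3 CPM). In RVO pools, the mean of Serpine2 was then above that of Plau (10.6 and 9.79 CPM). These places in the order thus rest on the lengths used.

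**Figure D4:**
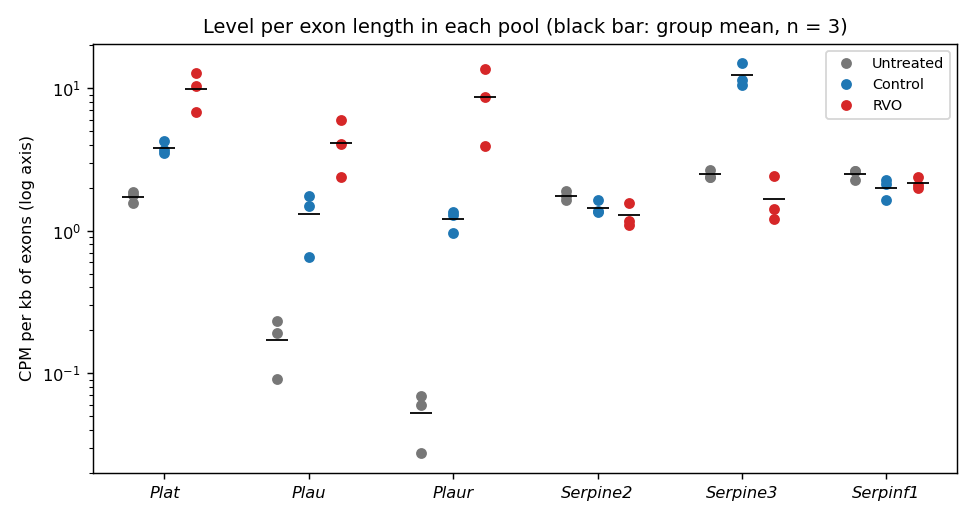
Level of the 6 genes per kb of exons in each pool, in CPM per kb on a log axis, with points for pools and a black bar for the group mean (n = 3). Plau and Plaur were the lowest of the 6 genes in untreated pools, and Plat and Plaur had the highest means in RVO pools (9.93 and 8.72 CPM per kb).

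The other genes of the plasminogen system, in lists of 51 genes in all, were read in the same way. In RVO against untreated eyes, 38 passed the filter, 24 were higher and 8 lower (63.2% and 21.1%, against 27.4% and 24.6% of all genes tested; median log2 fold change 0.87, against 0.01). In control against untreated eyes, 35 passed it, 20 were higher and 6 lower (57.1% and 17.1%, against 27.2% and 25.2% of all genes tested; median 0.38, against 0.01). In RVO against control eyes, 40 passed it, 6 were higher and 0 lower (15.0% higher, against 2.70% higher and 0.634% lower of all genes tested; median 0.38, against 0.02), while 6 were lower at an unadjusted p under 0.05 and 4 by DESeq2. Of all genes tested, 7940 of 16874 had an unadjusted p under 0.05 in either direction, and DESeq2 called 2162 lower. Without RVO replicate 2, 17 of 41 system genes were higher and 8 lower, against 2942 higher and 3315 lower of 17199 genes tested. With any other pool left out, 0 of the system genes were called, and 0 to 29 of all genes tested. The genes were picked with results known, and Serpinb2, Fpr1, Fpr2 and Mmp3, with 0 or 1 counts in each untreated pool, passed the filter against untreated eyes only through the laser-treated pools, which set their direction. The same held for Itgb3, with 6, 7 and 6 counts in the untreated pools.

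Plasminogen itself (Plg), which the liver makes, had 0 to 8 counts per pool and did not pass the filter. Of the 9 genes of plasminogen binding and contact activation, 5 were testable, and 3 were higher in RVO and 4 in control than in untreated eyes (all genes tested, 27.4% and 27.2% higher). Anxa2 and S100a10, which form the cell surface receptor that brings plasminogen and Plat together, rose side by side with Plat. Anxa2 was measured at 19.0 ± 1.23 CPM in untreated, 55.4 ± 8.64 in control and 136 ± 16.4 in RVO pools (mean ± SD, n = 3), with a log2 fold change of 1.30 between RVO and control eyes (edgeR adjusted p = 0.00601). S100a10 was measured at 18.2 ± 1.43, 58.5 ± 13.1 and 125 ± 14.4 CPM, with a value of 1.10 (adjusted p = 0.00965).
Enolase 1 (Eno1), a glycolytic enzyme that also binds plasminogen, rose by 1.19 in RVO and 0.85 in control against untreated eyes on the log2 scale, although near-identical copies make its counts uncertain. Plgrkt, a membrane receptor for plasminogen, rose by 0.33 in control eyes. Its value in RVO eyes was similar, at 0.35, but did not pass the test (edgeR adjusted p = 0.0506).

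Among 8 other inhibitors, 4 were testable in RVO against untreated eyes, with 3 higher and 1 lower (all genes tested, 27.4% and 24.6%), Serpinb2 being 1 of the 3. A2m (alpha-2-macroglobulin), a broad trap for proteases, rose from 19.8 ± 1.58 CPM in untreated to 169 ± 46.5 in control and 473 ± 82.5 in RVO pools. RVO eyes also exceeded control eyes (log2 fold change 1.49, edgeR adjusted p = 0.0086). Serping1, the inhibitor of complement C1 and of kallikrein, was measured at 9.28 ± 1.60, 45.9 ± 1.83 and 47.7 ± 4.76 CPM, up in both laser groups, with a log2 fold change of 0.06 between RVO and control eyes (adjusted p = 0.609). Serpinb2, an inhibitor of urokinase known from activated macrophages, had 0 counts in all 3 untreated pools, 19, 9 and 13 in control and 200, 30 and 79 in RVO pools. Against a floor of 3 counts over the untreated group, the level was at least 50.1-fold higher in RVO eyes, and in control eyes at least 7.85-fold higher.
Serpini1 (neuroserpin), a neuronal inhibitor of Plat, was the lower one, at 116 ± 5.41 CPM in untreated, 66.8 ± 2.44 in control and 30.4 ± 12.4 in RVO pools. It fell by 1.91 on the log2 scale in RVO eyes (adjusted p = 0.000253) and by 0.78 in control eyes (adjusted p = 2.44e-07), and the value for RVO against control eyes was -1.14 (adjusted p = 0.0152). Its known target Plat moved the other way in both laser groups.

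Of 18 receptors and partners of Plaur, Plau and the serpin complexes, all 18 were testable in RVO against untreated eyes, with 12 higher and 4 lower (all genes tested, 27.4% and 24.6%). Among the 12 were Fpr1, Fpr2 and Itgb3, whose direction was set by the filter. The leukocyte integrin chain Itgb2, a partner of Plaur, was higher by 2.67 in RVO and 1.70 in control against untreated eyes on the log2 scale, and its alpha chain Itgam by 2.07 and 0.99. Mrc2, the collagen receptor that associates with Plaur, was measured at 1.44 CPM in untreated, 3.76 in control and 7.67 in RVO pools and RVO pools exceeded control pools (log2 fold change 1.03, edgeR adjusted p = 0.00887), as was Itgb1 (0.66, adjusted p = 0.00895). The formyl peptide receptors Fpr1 and Fpr2, which respond to cleaved Plaur, were barely detected in untreated eyes. Fpr1 had a count ratio of 12.8 in RVO eyes (95% exact counting interval 4.23 to 63.5), and Fpr2 was at least 14.9-fold higher.
The 4 lower genes were the lipoprotein receptors Vldlr (log2 fold change -0.92), Sorl1 (-0.89), Lrp8 (-0.52) and Lrp2 (-0.43), named after their values were seen. Lrp1, the receptor best known for uptake of activator-inhibitor complexes, was also looked up after its values were seen. It was higher than in untreated eyes by 0.51 in RVO (adjusted p = 0.00284) and 0.52 in control eyes (adjusted p = 1.72e-05; both edgeR).

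Of 12 substrates of plasmin or the activators, 8 were testable against untreated eyes, with 4 higher and 3 lower in RVO and 4 higher and 2 lower in control eyes, Mmp3 being 1 of the 4 in both. Of all genes tested, 52.1% and 52.4% passed the test in either direction. Mmp3 (stromelysin 1), whose proenzyme plasmin cleaves, had 0 counts in untreated pools, 43 to 55 in control and 219 to 327 in RVO pools. Against the same floor, Mmp3 was at least 140-fold higher in RVO eyes, and in control eyes at least 28.3-fold higher. RVO pools exceeded control pools (log2 fold change 2.32, edgeR adjusted p = 0.00601). Fibronectin (Fn1) was higher by 1.98 in RVO and 1.40 in control against untreated eyes. Hgf, a growth factor whose precursor the activators can cleave, fell by 1.61 in RVO eyes. Its value in control eyes was -0.48, which did not pass the test (edgeR adjusted p = 0.0207). Bdnf, a neurotrophin released from its precursor by plasmin, fell by 1.53 and 0.69 in RVO and control eyes, and Pdgfd, which Plau activates, fell by 1.42 and 0.73. The fibrinogen chains were near the limit of detection, with 0 counts of Fga in every pool, 1 count of Fgb in all and 1 to 4 counts of Fgg per pool.

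Of the 4 partners of Serpine2 and Serpinf1, Pnpla2, a lipase that serves as a receptor for PEDF, was higher by 0.97 in RVO and 0.62 in control against untreated eyes. Rpsa, a ribosomal protein and laminin receptor that also binds PEDF, was higher by 1.80 and 1.27, which is uncertain because the gene has many processed copies. RVO and control eyes were separated by 0 of the 3 testable partners by edgeR (all genes tested, 3.34%), and by 1 at an unadjusted p under 0.05 (7940 of 16874 genes tested).

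**Figure D5:**
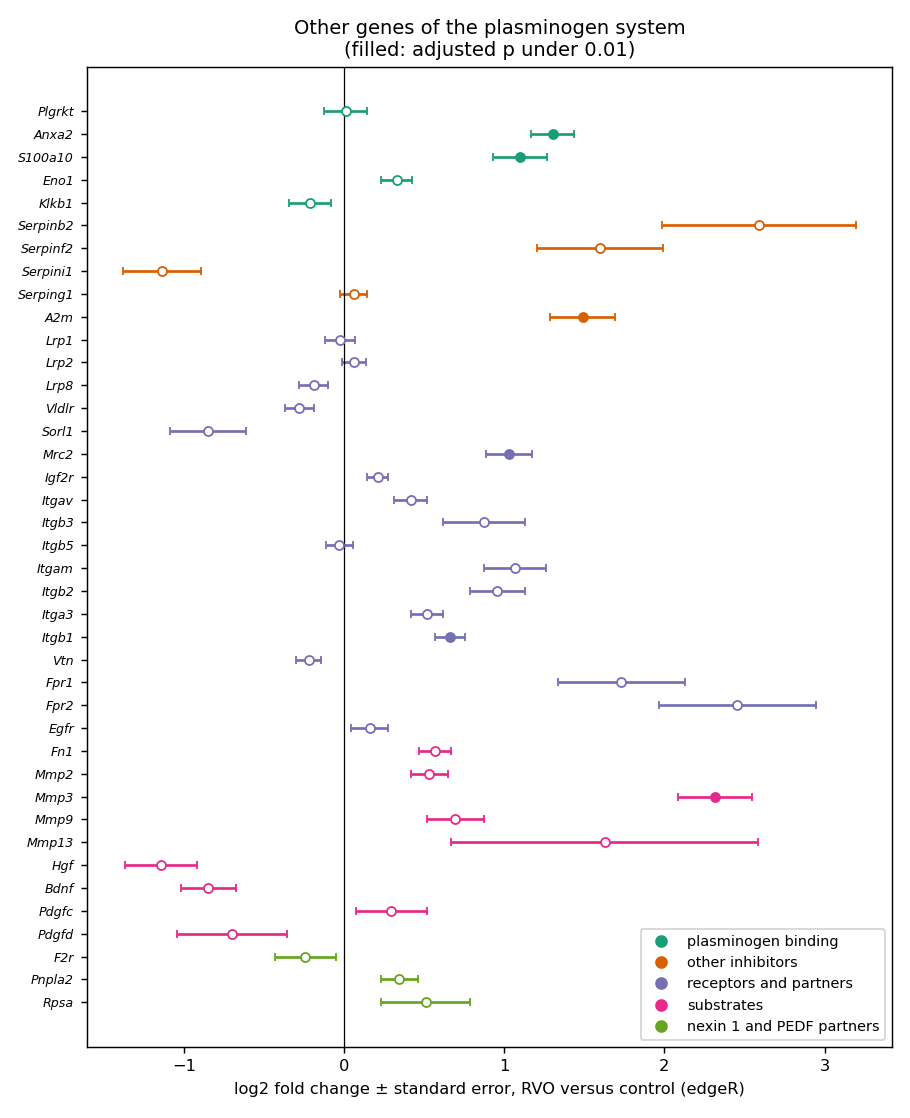
Log2 fold change ± standard error between RVO and control eyes (edgeR, 3 pools per group) for the genes of the plasminogen system that passed the filter for low counts, coloured by list and filled where the adjusted p was under 0.01. The 6 filled genes, Anxa2, S100a10, A2m, Mrc2, Itgb1 and Mmp3, all lay to the right of 0, between 0.66 and 2.32. With any pool other than RVO replicate 2 left out, 0 genes of these lists were called, and at most 29 of all genes tested.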

How the data were processed

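RNA of 9 pools of 6 retinas was sequenced from stranded, poly-A selected libraries. Raw counts per gene symbol were deposited by the authors, who used build GRCm38 and Gencode vM11. The submitters' processing notes name STAR 2.5.2b and featureCounts of Subread 1.5.1. The strand setting and the treatment of reads matching several genes are not given in the sources used here. The 92 spike-in names had 0 counts, and 0 columns were left unused.

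Tests were run with edgeR 4.0.16 (R 4.3.3), separately for each pair of groups taken from the labels: filterByExpr, TMM scaling, quasi-likelihood test and Benjamini-Hochberg adjustment over all genes tested, with a threshold of 0.01. The procedure was tested on simulated data. Ratios were tested by exact permutation of pools. Replicates differed by more than sampling noise (chi-square per degree of freedom 3.15 to 54.1).

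The members and the gene lists were chosen with earlier results of these data known. Named genes were the 6 members, Plg, up to 4 called genes per list and comparison by size of log2 fold change, and the 3 genes nearest in pattern to each member. Alternatives were another scaling (library size, DESeq2 1.42.0 size factors), DESeq2's test, no filter, 1 fit of all 9 pools, the replicate block, a threshold of 0.05 and each pool left out. Some inhibitors of the system were not analysed here.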

Additional observations from a re-analysis of the deposited data

Results flagged for a closer look

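For 3 genes the effect of laser treatment against the untreated pools differed between RVO and control eyes, tested as the difference of RVO and control pools. RVO against control eyes gave log2 fold changes of 1.39 for Plat (edgeR adjusted p = 0.00989), 2.87 for Plaur (adjusted p = 0.00977) and -2.88 for Serpine3 (adjusted p = 0.00564). Over the alternatives, the adjusted p ranged from 4.78e-08 to 0.0567 for Plat, from 1.69e-11 to 0.0567 for Plaur and from 9.19e-24 to 0.0389 for Serpine3. In each of these 3 genes, the 3 RVO pools lay on 1 side of the 3 control pools.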

How the results depend on the processing

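The rises of Plat, Plau and Plaur in both laser groups and of Serpine3 in control eyes against untreated eyes kept their direction and stayed under the threshold in all alternatives run. For Plau and Plaur, however, the filter for low counts set this direction wherever it was applied. Of 216 alternative values of the members, 188 stayed on the same side of the threshold with the same direction. Between RVO and control eyes, DESeq2 size factors gave log2 fold changes of 1.37 for Plat and 2.85 for Plaur, no longer under the threshold, with 1 member called. Plau passed it in 1 fit of all 9 pools (1.68), by DESeq2's test (1.66) and without the filter (1.67). Leaving out 1 pool gave 1.15 to 1.58 for Plat, 1.30 to 1.97 for Plau, 2.38 to 3.21 for Plaur and -3.26 to -2.69 for Serpine3, with 0 to 4 members called. Against untreated eyes it gave -0.59 to -0.32 for Serpine2 and -0.88 to -0.32 for Serpine3 in RVO eyes, with 3 to 5 members called and 6008 to 10491 genes in all. Serpinf1 (RVO against untreated) turned to 0.0343 when only library size was scaled, which moved the median of all genes to 0.22. Its value for RVO against control ran from -0.0193 (without control replicate 2) to 0.194, and the log2 ratio of Plau to Plat from -0.0256 (without control replicate 3) to 0.545.

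The 6 system genes called between RVO and control eyes became 21 in 1 fit of all 9 pools, 20 by DESeq2's test, 19 without the filter, 25 at a threshold of 0.05 and 0 to 25 with 1 pool left out. Of the fits with 1 pool left out, that without RVO replicate 2 gave the 25 and every other gave 0. Calls among all genes, 563 here, became 3853, 4043, 3309, 5836 and 0 to 6257 in the same settings and 892 with library size only.

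The sources do not say that pools of the same number hold the same mice, and same-numbered pools did not deviate together (correlations -0.142 to 0.0629 for RVO and control). With the replicate block, Plat was at 1.35, Plaur at 2.73 and Serpine3 at -2.91, with adjusted p = 0.0314 for each (edgeR), and 0 members, 0 system genes and 0 genes in all were called, while an unadjusted p under 0.05 was reached by 4 members and by 7227 genes. The depth of the untreated pools limits Plau, Plaur and other genes with few counts there.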

Other observations

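The genes whose pattern was most like that of a member were found by the root mean square difference of log2 CPM, centred on each gene's mean over the 9 pools, among 17112 genes. Plat was nearest to Efhd2 (0.162), Txnrd1 (0.162), a thioredoxin reductase, and Rcn3 (0.163). Txnrd1 was measured at 42.6 ± 4.34 CPM in untreated, 77.3 ± 8.56 in control and 195 ± 60.7 in RVO pools (mean ± SD, n = 3). Plau was nearest to Ptgs2 (0.256), the inducible cyclooxygenase, which was measured at 0.429 ± 0.132, 2.82 ± 0.892 and 8.55 ± 4.43 CPM, and then to Eif4ebp1 (0.336) and Emilin2 (0.375). Plaur was nearest to Serpinb2 (0.423), Acod1 (0.457), which makes itaconate in activated macrophages, and Clec4n (0.460), a C-type lectin of myeloid cells, all 3 with 0 counts in untreated pools.

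The genes nearest to Serpine3 were AU021092 (0.572), Gng13 (0.606) and Col27a1 (0.625). Gng13, a G protein subunit, was measured at 15.6 ± 2.66 CPM in untreated, 39.6 ± 2.30 in control and 13.6 ± 9.53 in RVO pools, and Col27a1, a fibrillar collagen, at 15.4 ± 2.03, 32.3 ± 4.17 and 11.7 ± 6.00 CPM. Serpine2 was nearest to App (0.0841), Narf (0.0910) and Ephx2 (0.0940), and Serpinf1 to Kank1 (0.0812), Mcm8 (0.0992) and Slc33a1 (0.106). The distances scale with how much a member varied over the pools (root mean square 1.28 for Serpine3 and 0.194 for Serpinf1, on the same scale), so they are not compared between members. They are descriptions over 9 pools that share their 3 groups.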
